A study of Homo sapiens with 11 samples.

Results

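The genes described here are the human zinc finger genes whose symbol starts with ZBTB, ZSCAN or ZKSCAN. They were chosen by symbol alone from the annotation of the array, which gave 64 of 18836 annotated genes, 41 with a ZBTB symbol (the BTB class) and 23 with a ZSCAN or ZKSCAN symbol (the SCAN class). A probe was tested when its detection p, which counts the negative control beads that reach its brightness, was under 0.01 on 5 or more arrays. With this filter 41 of the 64 genes (28 of the BTB class and 13 of the SCAN class) were among the 9653 genes tested. ZBTB8OS and ZBTB7C-AS2 carry the prefix but are a neighbouring gene and an antisense RNA, and of these only ZBTB8OS was tested.

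The arrays were of the Illumina HT12 beadchip type, read for total RNA of HEK293T cells, an easily transfected line of human embryonic kidney origin. After transfection with lipofectamine, 5 samples carried wild type DFNA5 (wtDFNA5) and 6 carried mutant DFNA5 (mutDFNA5), with 1 array each. DFNA5, now named GSDME, encodes gasdermin E, and its mutant form, in which an exon is missing, causes a dominant hearing loss and kills transfected cells. Both groups share the cell line and the transfection, and no array without a DFNA5 construct was analysed here, so higher and lower mean relative to wtDFNA5 and a difference can come from either construct. The labels place cell harvest at 6 h and RNA extraction at 12 h after transfection, and the study calls its replicates biological.

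BTB zinc finger proteins join a BTB domain, through which they pair with each other and recruit corepressors with histone deacetylases or a ubiquitin ligase, to DNA-binding zinc fingers, and many are known as repressors that steer blood cell and germ cell fates. The SCAN domain is a leucine-rich module that also pairs proteins with each other, and ZKSCAN proteins carry a KRAB domain beside it, which can recruit the corepressor TRIM28 and with it histone methylation. Many SCAN genes lie side by side in the genome, in a cluster next to the histone genes of chromosome 6 and on chromosome 19.

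The promoter of ZBTB33, the only up-regulated gene of both classes, is shown beside those of ZBTB11 and ZSCAN9. ZBTB11 is a higher but not called gene of the BTB class. ZSCAN9 is a neighbour of the only down-regulated gene, ZSCAN16, for which no promoter entry was found. Both were picked because their windows hold a match to the letters described below. Other named genes, such as ZBTB14, ZBTB44, ZSCAN18 and ZKSCAN4, have windows without any match and are not shown. Each line holds the 250 bases before the start of the gene from RefSeq, and the capitals mark matches on either strand to GCGNGGGCG, the letters bound by EGR factors (ZBTB33), to TGACGTCA, the cAMP response element, and CCGGAAGT, bound by ETS factors (ZBTB11), and to the ETS letters alone (ZSCAN9).
ZBTB33 (GRCh38.p14, chrX:120250562-120250811, plus strand): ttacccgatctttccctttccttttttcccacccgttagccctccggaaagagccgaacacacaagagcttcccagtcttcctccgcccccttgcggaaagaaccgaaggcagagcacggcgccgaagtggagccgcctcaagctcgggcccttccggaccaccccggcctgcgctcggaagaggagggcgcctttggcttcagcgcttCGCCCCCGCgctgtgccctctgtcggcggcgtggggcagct
ZBTB11 (GRCh38.p14, chr3:101677133-101677382, minus strand): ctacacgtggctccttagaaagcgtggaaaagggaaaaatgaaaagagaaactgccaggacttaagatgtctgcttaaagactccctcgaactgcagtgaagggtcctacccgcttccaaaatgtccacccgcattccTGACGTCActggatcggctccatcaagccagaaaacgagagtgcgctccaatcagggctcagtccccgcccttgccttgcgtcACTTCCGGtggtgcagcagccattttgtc
ZSCAN9 (GRCh38.p14, chr6:28224990-28225239, plus strand): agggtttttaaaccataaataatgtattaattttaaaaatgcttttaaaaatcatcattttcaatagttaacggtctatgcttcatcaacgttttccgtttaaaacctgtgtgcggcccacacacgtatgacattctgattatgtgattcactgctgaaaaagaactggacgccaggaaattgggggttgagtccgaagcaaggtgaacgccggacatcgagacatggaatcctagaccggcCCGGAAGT

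Few of these genes differed between the constructs, and the changes that did pass the test were modest. Of the 41 genes tested, 2 were significantly changed (limma, adjusted p under 0.05), which is 4.88% against 8.97% of all 9653 genes. ZBTB33 was up-regulated (4.05% of all genes were) and ZSCAN16 was down-regulated (4.92% of all genes were). The same 2 genes were the only ones whose groups did not overlap, against 6.62% of all genes (2.78% higher and 3.84% lower). At an unadjusted p under 0.05, 8 of the 41 genes passed, 4 higher and 4 lower, against 23.8% of all genes. Among the higher ones, ZBTB11 and ZSCAN25 met the detection filter only through the mutDFNA5 arrays, where they were higher. Counts of called genes over the whole array depended on scaling, with 391 higher and 475 lower in the main fit and 270 higher and 54 lower when arrays were shifted to a common median, and both members were called in each. In bulk RNA of this kind a smaller share of cells with a transcript and less of it per cell cannot be told apart.

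**Figure D1:**
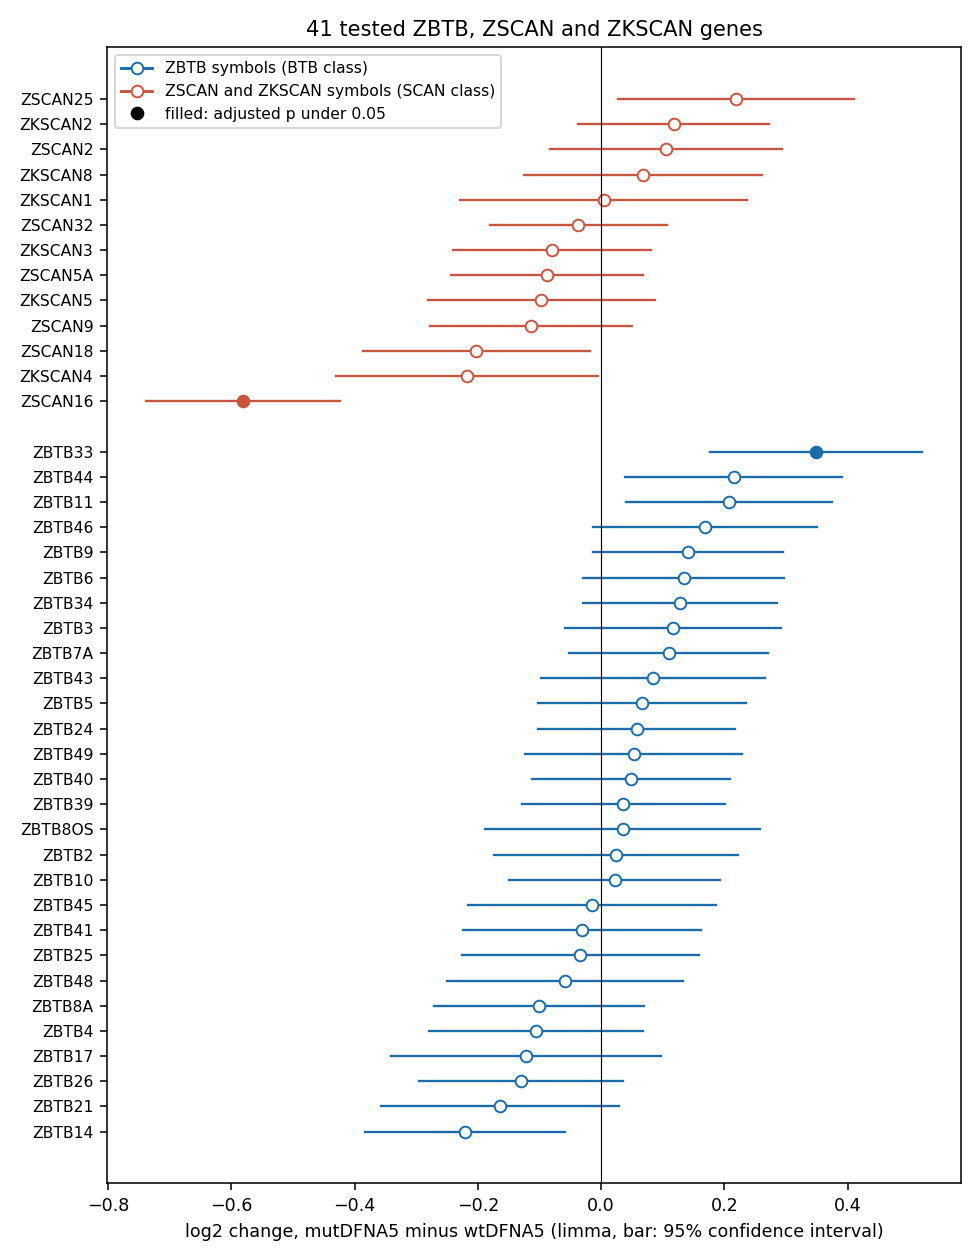
Log2 change (mutDFNA5 minus wtDFNA5) of each of the 41 tested genes with its 95% confidence interval, in blue for the BTB class and in red for the SCAN class. The filled points ZSCAN16 (-0.58) and ZBTB33 (0.35) passed the test, and 6 further intervals leave out 0 without passing after adjustment.

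ZSCAN16, a SCAN zinc finger gene of the chromosome 6 cluster whose function is little studied, fell most. Its normalized log2 signal was 8.90, 8.82, 9.05, 8.84 and 9.02 on the wtDFNA5 arrays, and on the mutDFNA5 arrays the lowest was 8.23, the median 8.33 and the highest 8.47. Every mutDFNA5 array lay below every wtDFNA5 array, with a gap wider than the range of either group. The mean went from 8.93 ± 0.10 (SD, n = 5) to 8.35 ± 0.10 (SD, n = 6), a log2 change of -0.58 (SE 0.08, 95% confidence interval -0.74 to -0.42), which is 1.50-fold lower (limma, adjusted p = 2.80e-05). By size of the fall ZSCAN16 stood at place 20 of the 9653 genes. Its single probe was detected on all 11 arrays. With background correction by detection p-value (normexp) the change was -0.81.

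ZBTB33 encodes Kaiso, a BTB zinc finger protein that binds methylated CpG pairs and also the unmethylated letters TCCTGCNA, and that partners with p120 catenin. Its log2 signal was 11.74, 11.82, 11.94, 11.93 and 11.65 on the wtDFNA5 arrays and ran from 11.95 over a median of 12.15 to 12.34 on the mutDFNA5 arrays. The groups did not overlap, but mutDFNA5 replicate 4 lay only just above wtDFNA5 replicate 3. The mean rose from 11.81 ± 0.13 (SD, n = 5) to 12.16 ± 0.14 (SD, n = 6), a log2 change of 0.35 (SE 0.08, 95% confidence interval 0.18 to 0.52), which is 1.27-fold (limma, adjusted p = 0.0114). By size of the rise it stood at place 196 of the 9653 genes.

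**Figure D2:**
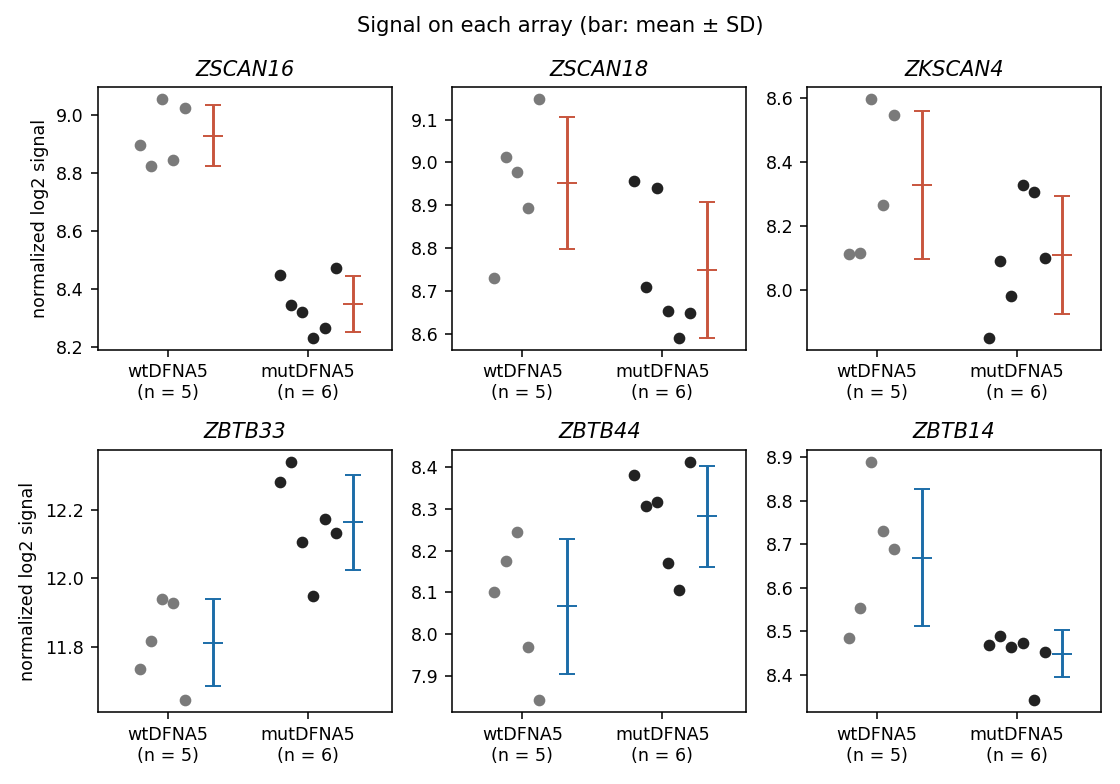
Normalized log2 signal on each array (grey points wtDFNA5, black points mutDFNA5, bars mean ± SD) for 3 genes of the SCAN class (top) and 3 of the BTB class (bottom), each on its own scale. The groups are apart for ZSCAN16 and ZBTB33 and overlap for ZSCAN18, ZKSCAN4, ZBTB44 and ZBTB14.

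Of the uncalled genes of the BTB class, ZBTB14, a repressor that binds GC-rich DNA and was first described on the MYC promoter, came closest to the threshold. Its log2 signal was 8.49, 8.55, 8.89, 8.73 and 8.69 on the wtDFNA5 arrays and ran from 8.34 over a median of 8.47 to 8.49 on the mutDFNA5 arrays. The mutDFNA5 arrays lay close together at the low end of a wider wtDFNA5 range, and 5 of 6 were below all wtDFNA5 arrays. The log2 change was -0.22 (SE 0.08, limma, adjusted p = 0.0841), and without wtDFNA5 replicate 1, the lowest of its group, it was -0.27 and passed the test (adjusted p = 0.0446). Leaving out the lowest array of the higher group widens the difference, and ZBTB14 passed in no other alternative. Without wtDFNA5 replicate 3, the highest of its group, the change was -0.17 (limma, adjusted p = 0.212).

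Next by p in the BTB class were ZBTB11, ZBTB44, ZBTB46 and ZBTB9, with higher means in mutDFNA5 and no call. ZBTB44 had log2 signals of 8.10, 8.18, 8.25, 7.97 and 7.84 on the wtDFNA5 arrays and from 8.11 over 8.31 to 8.41 on the mutDFNA5 arrays. These ranges overlapped, and the change was 0.22 with the first probe (limma, adjusted p = 0.122) and 0.15 with the second (adjusted p = 0.385). ZBTB11, a regulator of nuclear genes for mitochondrial proteins, had 7.56, 7.67, 7.35, 7.32 and 7.46 on the wtDFNA5 arrays and 7.53, 7.67 and 7.82 as the lowest, median and highest value on the mutDFNA5 arrays (change 0.21, adjusted p = 0.115). It was dim, with detection in 3 of 5 wtDFNA5 and in 6 of 6 mutDFNA5 arrays, while the lowest detected signal of an array was between 7.36 and 7.46. ZBTB46, a marker of classical dendritic cells, gave 0.17 (adjusted p = 0.256), and ZBTB9 gave 0.14 (adjusted p = 0.259). The groups overlapped for both genes.

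Several BTB genes with known roles were not called, and the intervals given here for them included 0. Fitted log2 changes were -0.12 (95% confidence interval -0.34 to 0.10) for ZBTB17, which encodes the MYC partner MIZ-1, and 0.11 (-0.05 to 0.27) for ZBTB7A, a repressor of fetal globin genes that was detected in 2 of 5 (wtDFNA5) and 4 of 6 (mutDFNA5) samples. ZBTB24, mutated in a form of the ICF immunodeficiency syndrome, gave 0.06 (-0.10 to 0.22), and the telomere-binding genes ZBTB48 and ZBTB10 gave -0.06 (-0.25 to 0.13) and 0.02 (-0.15 to 0.19). ZBTB4, a relative of Kaiso that also binds methylated CpG, gave -0.11 with the brighter of its 2 probes and 0.11 with the other, neither of them called, so its direction depended on the probe. ZBTB21, whose product binds that of ZBTB14, gave -0.16 (limma, adjusted p = 0.300). Over the 28 genes the standard deviation between arrays of a group had a median of 0.13 in either group, and the median size of a change was 0.10, as over all genes.

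In the SCAN class 3 further genes had an unadjusted p under 0.05, and none of these passed after adjustment. ZSCAN18, silenced by promoter methylation in tumours of the gut, had log2 signals of 8.73, 9.01, 8.98, 8.89 and 9.15 on the wtDFNA5 arrays and from 8.59 over 8.68 to 8.96 on the mutDFNA5 arrays. The ranges overlapped, with 2 wtDFNA5 arrays below the highest mutDFNA5 array, and the change was -0.20 (SE 0.09, limma, adjusted p = 0.168). ZKSCAN4, a KRAB and SCAN gene of chromosome 6, had 8.11, 8.12, 8.60, 8.27 and 8.55 on the wtDFNA5 arrays and 7.85, 8.10 and 8.33 as the lowest, median and highest on the mutDFNA5 arrays, a change of -0.22 (SE 0.10, adjusted p = 0.206) with wide overlap. ZSCAN25 went the other way, with 7.14, 7.32, 7.52, 7.19 and 7.50 on the wtDFNA5 arrays and from 7.33 over 7.57 to 7.74 on the mutDFNA5 arrays (change 0.22, adjusted p = 0.152). It was near the detection limit, with 2 of 5 wtDFNA5 and 5 of 6 mutDFNA5 arrays detected.

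The remaining SCAN genes showed smaller values. ZKSCAN3, a repressor of autophagy and lysosome genes, gave a log2 change of -0.08 (95% confidence interval -0.24 to 0.08). ZKSCAN1, known as the host gene of a circular RNA that was not analysed here, gave 0.004 (-0.23 to 0.24), with a wide spread in wtDFNA5 (SD 0.33). ZKSCAN2 gave 0.12 (limma, adjusted p = 0.363) and ZSCAN9 -0.11 (adjusted p = 0.412). ZSCAN2 was read by 3 tested probes that gave 0.10, -0.09 and -0.10, none of them called, so no direction can be given for it.

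The 2 classes had medians on opposite sides of 0. The median log2 change was 0.04 in the BTB class (18 of 28 positive, quartiles -0.04 and 0.12) and -0.08 in the SCAN class (5 of 13 positive, quartiles -0.11 and 0.07), against -0.005 over all genes, of which 48.5% were positive. With arrays shifted to a common median these values were 0.09 and -0.03, against 0.07 over all genes. Without the detection filter, which brings in undetected genes, they were 0.04 and -0.0004 (41 and 23 genes). With detection on all 11 arrays they were 0.04 and -0.09 (22 and 11 genes), so the lean of the SCAN class depended on leaving out undetected genes. Within the SCAN class the median was -0.09 for the 7 ZSCAN genes and -0.04 for the 6 ZKSCAN genes. These are descriptions of the 41 genes and carry no test, and 39 of their 41 confidence intervals lay within 0.5 of 0 on either side. The exceptions were ZSCAN16 and ZBTB33.

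**Figure D3:**
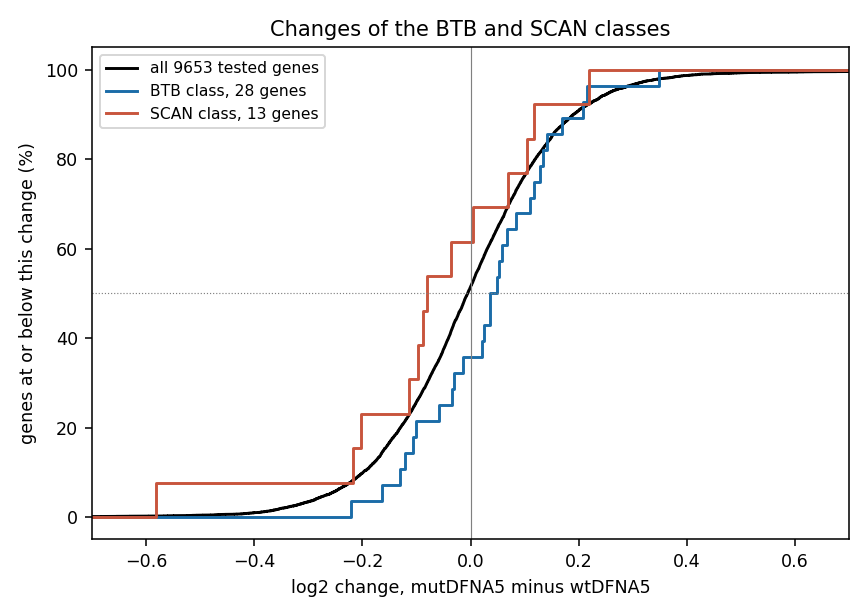
Cumulative share of genes (%) at or below each log2 change for all 9653 tested genes (black), the BTB class (blue, 28 genes) and the SCAN class (red, 13 genes). The curves cross the 50% line at -0.005, 0.04 and -0.08, and ZSCAN16 forms the low tail of the red curve.

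The same lean was read array by array, as the mean deviation of the BTB genes from their own averages over all arrays minus that of the SCAN genes. On the wtDFNA5 arrays this difference was -0.06 ± 0.05 (SD, n = 5), from -0.12 in replicate 5 to 0.005 in replicate 4, and on the mutDFNA5 arrays it was 0.05 ± 0.03 (SD, n = 6), from 0.01 to 0.10. The groups did not overlap. When ZSCAN16 and ZBTB33 were left out, the difference was -0.03 ± 0.05 on the wtDFNA5 arrays and 0.02 ± 0.04 on the mutDFNA5 arrays, the ranges of -0.08 to 0.03 and -0.02 to 0.09 overlapped, and the medians of the classes were 0.04 (27 genes) and -0.06 (12 genes). Of the tested members 35 were detected on wtDFNA5 replicate 4, which also had the lowest median signal before normalization (6.90), and between 38 and 41 on the other arrays, and the part of this in the class difference was not tested.

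**Figure D4:**
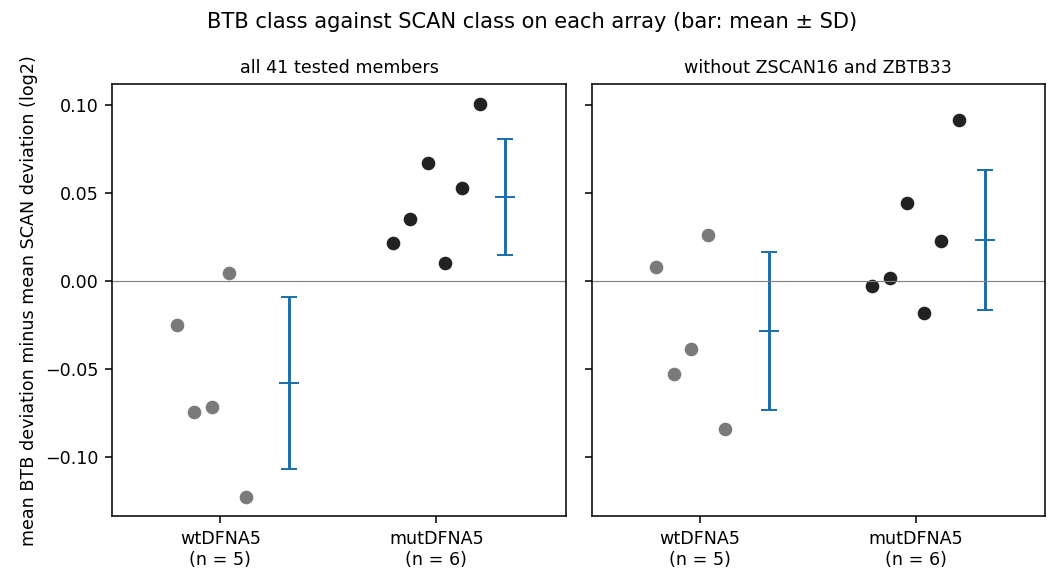
Mean deviation of the BTB class minus that of the SCAN class on each array (log2; bars mean ± SD), over all 41 tested genes (left) and without ZSCAN16 and ZBTB33 (right). The groups are apart on the left, with wtDFNA5 at -0.06 ± 0.05 and mutDFNA5 at 0.05 ± 0.03, and overlap on the right.

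The fall of ZSCAN16 was then set beside its neighbours on chromosome 6, in the order of RefSeq. The next gene on one side, the SCAN gene ZNF165, gave a log2 change of -0.22 (limma, adjusted p = 0.135), and beyond it the histone genes H2AC17 and H3C12 gave -0.25 (adjusted p = 0.0907) and 0.03 (adjusted p = 0.879). On the other side followed ZKSCAN8 (0.07), ZSCAN9 (-0.11), ZKSCAN4 (-0.22), PGBD1 (-0.17, adjusted p = 0.268), ZKSCAN3 (-0.08), SCAND3 (0.004, adjusted p = 0.983) and TRIM27 (0.20, adjusted p = 0.106), and between them lay genes without a tested probe, such as ZSCAN31. Of these genes only ZSCAN16 was called. On chromosome 9 the adjacent genes ZBTB6 and ZBTB26 gave 0.13 and -0.13, and ZBTB43 and ZBTB34, also adjacent, gave 0.08 and 0.13.

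**Figure D5:**
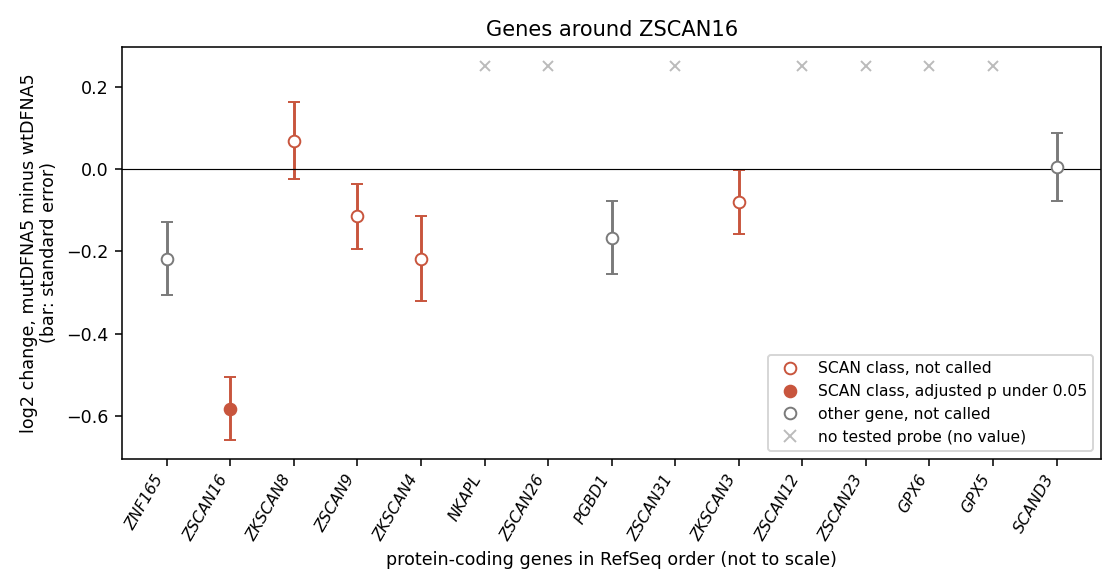
Log2 change (mutDFNA5 minus wtDFNA5, bars standard error) of the protein-coding genes around ZSCAN16 in their order on chromosome 6, with distances not to scale. ZSCAN16 at -0.58 is the filled point, the other plotted values, from ZNF165 to SCAND3, lie between -0.22 and 0.07, and crosses at the top mark genes without a tested probe.

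A promoter entry was found for 34 of the 41 tested genes, and the letters shown above were counted in all of them on both strands. ZSCAN16, the only down-regulated gene, was among those without an entry, so its promoter was not read. The EGR letters occurred in 5 of 34 (14.7%, against 14.4% of 8016 tested genes and 8.25% of all 27305 promoters). By class this was 5 of 23 BTB genes and 0 of 11 SCAN genes, counts that are small and were not tested. The 5 genes were ZBTB33, ZBTB46 (at 2 positions), ZBTB34, ZBTB4 and ZBTB39. Their log2 changes were 0.35, 0.17, 0.13, -0.11 and 0.04. The ETS letters occurred in 4 of 34 (11.8%, against 7.92% of tested genes and 3.64% of all promoters), in 1 of 23 BTB and 3 of 11 SCAN genes. These were ZBTB11 (0.21), ZSCAN9 (-0.11), ZKSCAN3 (-0.08) and ZKSCAN8 (0.07), so genes with these letters were found on both sides of 0. The cAMP response element occurred in ZBTB11 alone (2.94%, against 3.26% of tested genes and 1.77% of all promoters), and the Kaiso letters TCCTGCNA in ZSCAN32 alone (2.94%, against 2.96% and 3.68%). ZSCAN32 gave a log2 change of -0.04 (95% confidence interval -0.18 to 0.11).

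Genes of the same classes that carry other symbols were examined next. Of 5 tested BTB zinc finger genes with other symbols, 1 rose and 0 fell (median 0.11), where 4.05% and 4.92% of all genes did. This was BCL6B, a close relative of the germinal centre repressor BCL6, with a log2 change of 0.36 (7.88 ± 0.12 against 8.24 ± 0.21, limma, adjusted p = 0.0187), while BCL6 gave 0.13 (adjusted p = 0.513). Of 20 tested SCAN genes with other symbols, 4 were down-regulated and 1 was up-regulated (median -0.13), beside 4.92% and 4.05% of all genes. ZNF274, which directs the histone methyltransferase SETDB1 to zinc finger gene clusters, fell by 0.37 (adjusted p = 0.00401), with 1 of its other 2 probes also called (-0.27) and the last at 0.05.

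ZNF213 fell by 0.35 (8.48 ± 0.12 against 8.12 ± 0.09, limma, adjusted p = 0.00629), the SCAN pseudogene SCAND2P by 0.36 (adjusted p = 0.0119) and ZNF394 by 0.34 (adjusted p = 0.0375), the last with 1 of its 2 probes only (the other gave -0.09). The myeloid zinc finger gene MZF1 was up-regulated, with a log2 change of 0.27 (adjusted p = 0.0429). MZF1 was not followed through the alternative fits, so whether its call holds in them is not known. When arrays were shifted to a common median the calls of all 4 genes that fell were lost, so these calls depended on the scaling. The changes were then -0.30 for SCAND2P, -0.28 for ZNF213, -0.26 for ZNF274 and -0.23 for ZNF394, while ZSCAN16 kept its call (-0.51, limma, adjusted p = 0.00871). ZNF394 also lost its call with normexp (limma, adjusted p = 0.103) and with the replicate number as a block (adjusted p = 0.0780). With single arrays left out its adjusted p ran from 0.0153 to 0.108.

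Among the corepressors and ubiquitin ligase partners of BTB proteins, 2 of 22 tested genes rose and 0 fell (median 0.05), a share close to the 8.97% called over all genes. HDAC4, a class IIa histone deacetylase, rose by 0.41 (7.53 ± 0.12 against 7.94 ± 0.13, limma, adjusted p = 0.00316), with 4 of 5 wtDFNA5 arrays above the detection threshold. CTBP1, a corepressor that senses NADH, rose by 0.29 with its brightest probe (adjusted p = 0.0294), but its other 2 probes gave 0.08 and 0.07, and with the mean of its probes it was not called (adjusted p = 0.182). Of 15 tested partners of KRAB and SCAN proteins 0 passed in the limma fit, with 2 at an unadjusted p under 0.05, and their median was 0.0002. TRIM28, the KRAB corepressor, gave 0.02 (adjusted p = 0.937), and the smallest adjusted p was 0.111, for the chromatin remodeller SMARCAD1 (0.22).

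Genes reported as targets were read in the same way. Of 18 tested autophagy and lysosome genes placed under ZKSCAN3 in other human cells, 1 was up-regulated and 1 was down-regulated (median 0.03, with 8.97% of all genes called). Both encode proteins of autophagosomes, MAP1LC3B at 0.29 (limma, adjusted p = 0.0351) and GABARAPL1 at -0.35 (adjusted p = 0.0148), and the first call was lost under many alternatives while the second was lost with median scaling (-0.24, adjusted p = 0.211). Of 7 tested cell cycle genes reported under BTB zinc finger control, 2 rose and 0 fell (median 0.14), beside 4.05% and 4.92% of all genes. MYC, the partner of the ZBTB17 product, rose by 0.50 (10.48 ± 0.37 against 10.98 ± 0.21, adjusted p = 0.0184), and CCND1, the cyclin D1 gene, by 0.31 (adjusted p = 0.0220). With normexp the changes were 0.54 (adjusted p = 0.0877) and 0.32 (adjusted p = 0.0572), and the call of CCND1 was also lost with the replicate number as a block (0.28, adjusted p = 0.0605) and without wtDFNA5 replicate 1 (0.28) or 5 (0.29) or mutDFNA5 replicate 5 (0.27) or 6 (0.28). MYC kept its call with each single array left out, but its change ran from 0.35 (without wtDFNA5 replicate 4) to 0.59 (limma, adjusted p 0.00857 to 0.0479). ZBTB17 itself was not called.

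Of the 64 genes, 23 had no tested probe and no change is given for them. In the BTB class these were ZBTB1, ZBTB7B, ZBTB7C, ZBTB7C-AS2, ZBTB12, ZBTB16, ZBTB18, ZBTB20, ZBTB32, ZBTB37, ZBTB38, ZBTB42 and ZBTB47, and in the SCAN class ZKSCAN7, ZSCAN1, ZSCAN4, ZSCAN5B, ZSCAN10, ZSCAN20, ZSCAN22, ZSCAN29, ZSCAN30 and ZSCAN31. They include genes known from other cells, such as ZBTB16 (PLZF) and ZBTB7B (ThPOK) of lymphocytes, ZSCAN4 of the early embryo and ZSCAN10 of pluripotent cells. The probe nearest to the filter was that of ZBTB47, detected on 4 arrays, followed by ZSCAN31 on 3. Just inside it were ZBTB26 (4 of 5 wtDFNA5 and 2 of 6 mutDFNA5 arrays, change -0.13), ZBTB41 (3 of 5 and 3 of 6, change -0.03) and ZBTB7A, and no tested gene was undetected throughout a group. Of the tested genes 33 were detected on all 11 arrays.

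Between 14029 and 15443 of 42000 probes were detected per array, arrays correlated at 0.990 to 0.994 within groups and at 0.985 to 0.991 between groups (Pearson, across probes), and 0 pairs were identical. The number of arrays limits the precision, with standard errors of 0.07 to 0.11 for the 41 genes. GSDME gave 8.02 ± 0.22 (SD, n = 5) and 8.05 ± 0.20 (SD, n = 6), and since the position of its probe within the gene is not known here, it does not check the labels. Of 6 markers of HEK293 cells, VIM, NEFL and NEFM were detected on all 11 arrays and PAX2, LHX1 and SOX11 on 0, and NEFM, a neurofilament gene, was higher in mutDFNA5 (0.75, limma, adjusted p = 8.91e-07), whose relation to the changes above was not tested. Of 9 listed markers of other cell types, PTPRC, CD3E, ALB, COL3A1, MYH6, KRT5 and KRT14 were detected on 0 arrays, COL1A1 on 2 and PECAM1 on 9 (-0.04, not called).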

How the data were processed

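Total RNA of transfected HEK293T cells was measured on 11 arrays of the Illumina HT12 beadchip type, 5 for wtDFNA5 and 6 for mutDFNA5. Groups follow the characteristics in the labels, since the titles call the mutant arrays KO. The authors deposited log2 signals that were not normalized between arrays, together with detection p-values, and quantile-normalized log2 values. The methods name beadarray and limma, and the submitters' processing notes limma 3.24.4. The authors dropped 1 wtDFNA5 array at quality control. No background was subtracted, which understates changes of dim probes.

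Quantile normalization was run again from the signals (limma 3.58.1, R 4.3.3, largest difference from the deposited normalized log2 values 0.019), which removes any shift shared by most transcripts. Of 42000 probes, 14542 had a detection p under 0.01 on 5 or more arrays and were kept. Gene names came from a platform annotation of a later HT12 version than the methods name, updated through the RefSeq table of GRCh38.p14, and the probe with the highest mean stood for its gene. No member symbol changed on update, and 0 columns of per-sample values were unused. The comparison was mutDFNA5 minus wtDFNA5 by limma's moderated test, two-sided, without covariates, adjusted over the whole set of tested probes (Benjamini-Hochberg). P-values measure the spread between arrays. The script was tested on simulated data. Promoters are those of RefSeq (GRCh38.p14), with an entry for 55 of the 64 members.

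The members, lists and tests were chosen with earlier results of these data known. Named were all called members, the 5 uncalled members with the smallest p of each class, all untested members, GSDME and up to 4 called genes per list. Other genes were named after their values were seen, for their known roles, position or probes. Alternatives were normexp background correction (offset 16), scaling to a common median, the deposited normalized values, no filter, detection on all 11 arrays, the mean of a gene's probes, a trended and robust prior, the replicate number as a block, updated symbols, and each array left out. Leaving out ZBTB8OS and ZBTB7C-AS2 was added after seeing the data.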

Additional observations from a re-analysis of the deposited data

Results flagged for a closer look

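Among the named genes, 48 groups were checked for an array far from the others of its group, and 3 such arrays were found. Chance flags about 1 in 20 groups. For ZBTB14, mutDFNA5 replicate 5 had a log2 signal of 8.34, while the other 5 mutDFNA5 arrays lay between 8.45 and 8.49. For HDAC4, wtDFNA5 replicate 1 had 7.75 against 7.45 to 7.53 on the other wtDFNA5 arrays, and for GABARAPL1, mutDFNA5 replicate 3 had 10.01 against 9.83 to 9.89 on the other mutDFNA5 arrays.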

How the results depend on the processing

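ZSCAN16 and ZBTB33 were called, in the same direction, in every alternative run. ZSCAN16 ran from -0.61 to -0.55 and ZBTB33 from 0.31 to 0.39 when single arrays were left out (limma, adjusted p 4.11e-05 to 0.000178 and 0.00553 to 0.0378). Leaving out 1 array gave 2 to 3 members called, 1 to 1 higher, 1 to 2 lower, 1 to 2 in the BTB class and 1 to 1 in the SCAN class, and medians of 0.03 to 0.08 for the BTB class and -0.11 to -0.05 for the SCAN class. The added call was ZBTB14, without wtDFNA5 replicate 1 (2 lower, 2 in the BTB class).

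With scaling to a common median the BTB median moved to 0.0924 and the SCAN median to -0.03, while that of all genes was 0.07. Without a filter, with all 64 members tested, the SCAN median was -0.000443 and the BTB median 0.04. With detection on all 11 arrays the SCAN median was -0.09, so the lean of the SCAN class depended on leaving out undetected probes. Calls over all genes were 391 higher and 475 lower, but 270 and 54 with that scaling and 279 and 299 without a filter. GSDME, which was not called, changed sign when replicate 1 (-0.0155) or 2 (-0.0320) of wtDFNA5 or replicate 6 of mutDFNA5 (-0.0288) was left out, and with the replicate block (-0.0288). The cause of these differences was not tested.

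Arrays with the same replicate number showed little shared deviation (correlations of -0.04, -0.05, -0.06, 0.11 and 0.006). These values cannot tell whether the samples were prepared in pairs. With the replicate number as a block 2 members were again called, the medians were 0.05 (BTB) and -0.07 (SCAN), and 259 genes were higher and 298 lower. Among the named genes of other symbols, partners and targets, a call was lost 43 times, counting each gene in each alternative fit. The direction stayed the same each time, and most of these losses were for MAP1LC3B, ZNF394 and CTBP1.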
